A study of Mus musculus with 15 samples.

Results

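Oligodendrocytes build myelin by extending microtubule-rich processes, wrapping sheets of membrane around axons and compacting them as the actin cytoskeleton is taken apart. The 9 genes described here are enriched in these cells but do not encode the structural proteins of myelin. They are the tubulin Tubb4a and the tubulin polymerisation-promoting protein Tppp, the actin regulators Gsn, Ppp1r14a and Anln, the membrane proteins Pllp, Tspan2 and Efnb3, and the stress-responsive gene Ndrg1. They were chosen by name from the 19261 genes with a TPM (transcript abundance per length, scaled to a fixed library total) in every mouse, and some of them because they fell in these data. The rule does not say in which comparison they fell. Both comparisons with untreated mice are therefore descriptions without a test for these 9 genes, and their low level there is not a finding.

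RNA was sequenced from mixed corpus callosum and neocortex of 15 wild-type mice in 3 groups of 5. Siponimod mice received 0.25% (w/w) cuprizone for 3 weeks together with siponimod at 3.125 mg/kg. Vehicle mice received the same cuprizone for 3 weeks with vehicle. Control mice had standard chow and no treatment, so neither agent nor vehicle was given to them. Cuprizone, a chelator of copper, is toxic to oligodendrocytes and causes loss of myelin without an autoimmune attack, and siponimod is a modulator of sphingosine-1-phosphate receptors used in multiple sclerosis. Neither strain, age and sex nor the route of siponimod is given in the sources used here. In tissue of mixed cells, fewer oligodendrocytes and less RNA per oligodendrocyte cannot be told apart. Neurons and other cells also express several of the 9 genes, such as Tubb4a and Efnb3, and bulk TPM do not separate the sources.

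1 library stood apart. In vehicle mouse 1 the short neuronal RNA Bc1 took 35.1% of all TPM, against 5.996% to 10.8% in the other 14 mice. Its median tested gene had 5.54 TPM, against 11.8 to 13.0 TPM elsewhere, so most of its deposited TPM are low. Fold changes and percentages of control were therefore computed after each library was scaled to a common median. Scaling did not remove a trend with transcript length in that mouse, where the tenth of genes with the shortest transcripts (69 to 1002 bases) stayed a median of 0.94 log2 above the other vehicle mice and the tenth with the longest lay 0.56 log2 below. Ppp1r14a, at 950 bases the shortest of the 9 transcripts, was 2.12 log2 higher in vehicle mouse 1 than in the other vehicle mice after scaling, and Tppp, at 5090 bases the longest, stood at -0.57 log2 against them. The other 7 genes lay between -0.21 and 0.58 log2. In siponimod mouse 1 the same medians stayed between -0.03 and 0.02 log2 across transcript lengths.

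Tubb4a, a β-tubulin made by oligodendrocytes and neurons, was the most abundant of the 9 genes in each group. Its TPM were 402, 447, 486, 437 and 441 in siponimod mice 1 to 5, 159, 364, 417, 444 and 390.3 in vehicle mice, and 598, 557, 537, 611 and 552 in control mice. All siponimod and vehicle mice were below all control mice, and the siponimod and vehicle mice overlapped. The means were 443 ± 30.2 TPM in siponimod mice, 355 ± 114 in vehicle mice and 571 ± 31.7 in control mice (SD, n = 5 each). After scaling, Tubb4a stood at 77.2% ± 5.3 of the control mean in siponimod mice and 69.8% ± 6.7 in vehicle mice (SD, n = 5 each), where control mice varied by 6.7%.

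Tppp bundles microtubules and organises them in oligodendrocyte processes. It had 166, 196, 198, 181 and 186 TPM in siponimod mice, 52.0, 160.0, 185, 191 and 159 TPM in vehicle mice, and 201, 216, 210.0, 209 and 221 TPM in control mice. The control mice lay close together, with an SD of 3.03% of their scaled mean, and every siponimod and vehicle mouse was below them. Tppp had the smallest distance from control of the 9 genes, at 87.5% ± 5.9 of the control mean in siponimod mice and 77.8% ± 14.7 in vehicle mice. Without vehicle mouse 1, the only vehicle mouse under 70%, the other 4 stood at 83.3% ± 9.1 (SD, n = 4).

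Gsn encodes gelsolin, which severs and caps actin filaments. Its TPM were 26.8, 24.4, 24.6, 25.6 and 23.96 in siponimod mice, 15.6, 18.7, 21.6, 27.1 and 26.6 in vehicle mice, and 45.9, 42.8, 38.9, 54.4 and 45.9 in control mice. The siponimod mice were the most alike of any group for this gene, and no mouse on cuprizone reached the lowest control mouse. Scaled levels were 54.8% ± 2.9 of the control mean in siponimod mice and 57.2% ± 13.1 in vehicle mice, with 52.0% ± 7.3 in the 4 vehicle mice other than mouse 1.

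Ppp1r14a encodes CPI-17, a phosphorylation-dependent inhibitor of myosin light chain phosphatase. It had 2.58, 2.09, 3.60, 3.41 and 3.19 TPM in siponimod mice, 5.97, 2.59, 2.59, 4.28 and 1.71 TPM in vehicle mice, and 31.6, 26.9, 21.9, 32.0 and 27.1 TPM in control mice. The highest mouse on cuprizone, vehicle mouse 1, was still under the lowest control mouse. The gene stood at 10.6% ± 2.4 of the control mean in siponimod mice, the lowest of the 9, and at 17.8% ± 17.4 in vehicle mice. That spread came from vehicle mouse 1 at 48.4%, and the other 4 vehicle mice had 10.1% ± 3.8 (SD, n = 4).

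Anln encodes anillin, a scaffold that binds actin, myosin and septins and is known from dividing cells and from myelin. Its TPM were 3.85, 3.48, 4.74, 5.69 and 4.40 in siponimod mice, 1.57, 3.61, 3.88, 5.45 and 3.86 in vehicle mice, and 15.7, 14.3, 11.7, 17.2 and 14.0 in control mice. The groups on cuprizone overlapped each other and stayed under the control mice. Anln stood at 30.3% ± 6.6 of the control mean in siponimod mice and 28.1% ± 5.1 in vehicle mice, next above Ppp1r14a.

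Ppp1r14a and Anln, the 2 actin regulators with the lowest share of their control level, are shown with the 250 bases before their RefSeq transcription start (GRCm38.p6), written 5′ to 3′ along the gene. Capitals mark CACGTG, a palindromic E box that also contains ACGTG, the core of the hypoxia response element. The Ppp1r14a window is chr7:29289070-29289319 on the plus strand and the Anln window is chr9:22389207-22389456 on the minus strand.
Ppp1r14a: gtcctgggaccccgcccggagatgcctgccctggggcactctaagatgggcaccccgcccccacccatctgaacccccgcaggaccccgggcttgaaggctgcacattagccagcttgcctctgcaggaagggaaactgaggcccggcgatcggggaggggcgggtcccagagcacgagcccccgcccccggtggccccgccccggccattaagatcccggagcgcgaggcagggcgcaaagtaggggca
Anln: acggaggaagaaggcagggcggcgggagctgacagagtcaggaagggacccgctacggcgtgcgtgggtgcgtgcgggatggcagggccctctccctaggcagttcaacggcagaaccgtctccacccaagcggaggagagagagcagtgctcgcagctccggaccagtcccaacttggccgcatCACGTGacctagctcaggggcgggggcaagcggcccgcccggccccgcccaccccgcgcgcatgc
Among the 9 genes, 7 had entries in the promoter table, with 10 windows in all because Gsn and Tspan2 have several starts. CACGTG, searched on both strands, was in 1 of the 10 windows (Anln) and in 6.02% of all 32851 windows of this length. ACGTG was in 2 (Anln and Tubb4a) and in 16.6% of all windows. The SOX-type words ACAAAG and ACAATG were together in 1 (Tspan2) and in 25.2% of all windows. Of the words CTGGCAC and CTGGTAC, which MYRF, the transcription factor of myelinating oligodendrocytes, is known to bind, neither was in any of the 10, against 4.19% and 1.83% of all windows. The median GC content was 61.2% in the 10 windows and 52.4% in all. A match of letters is not a binding site, and windows without one say nothing about the factor.

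Pllp encodes plasmolipin, a MARVEL-domain protein that sits in myelin membrane. It had 28.5, 36.5, 41.2, 39.9 and 41.1 TPM in siponimod mice, 18.4, 27.3, 32.9, 41.5 and 20.5 TPM in vehicle mice, and 69.9, 60.3, 52.3, 81.7 and 54.2 TPM in control mice. It was the most variable of the 9 among control mice, with an SD of 19.2% of the scaled mean, and still the highest mouse on cuprizone stayed under the lowest control mouse. Pllp stood at 58.7% ± 9.3 of the control mean in siponimod mice and 52.0% ± 14.3 in vehicle mice.

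Tspan2 is a tetraspanin of oligodendrocytes, found in myelin. Its TPM were 13.9, 18.7, 24.01, 24.9 and 23.5 in siponimod mice, 7.22, 18.3, 16.7, 26.5 and 14.2 in vehicle mice, and 58.8, 59.9, 45.1, 74.2 and 59.9 in control mice. The highest mouse on cuprizone was far under the lowest control mouse. Tspan2 stood at 35.3% ± 8.5 of the control mean in siponimod mice and 31.2% ± 7.8 in vehicle mice, next above Anln.

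Efnb3 encodes ephrin-B3, a membrane-bound ligand of Eph receptors that myelin presents to axons. It had 36.0, 39.2, 44.5, 49.8 and 41.1 TPM in siponimod mice, 13.7, 33.8, 30.2, 43.4 and 29.7 TPM in vehicle mice, and 59.9, 54.2, 57.0, 71.6 and 55.8 TPM in control mice. No mouse on cuprizone reached the control mice, and all 5 siponimod mice were above every vehicle mouse other than vehicle mouse 4. Efnb3 stood at 70.5% ± 10.3 of the control mean in siponimod mice and 56.9% ± 9.1 in vehicle mice, the widest gap between the means of the groups on cuprizone among the 9 genes.

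Ndrg1, a gene induced by hypoxia and cell stress and needed for myelin upkeep in peripheral nerve, had 38.8, 44.6, 49.1, 54.9 and 50.8 TPM in siponimod mice, 22.0, 38.8, 35.7, 48.5 and 39.4 TPM in vehicle mice, and 67.5, 56.7, 56.1, 80.8 and 61.4 TPM in control mice. As deposited, siponimod and control mice did not overlap. After scaling they did, since siponimod mouse 4 at 87.7% of the control mean passed control mouse 3 at 85.9%. Ndrg1 stood at 73.8% ± 11.4 in siponimod mice and 66.3% ± 8.7 in vehicle mice.

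**Figure D1:**
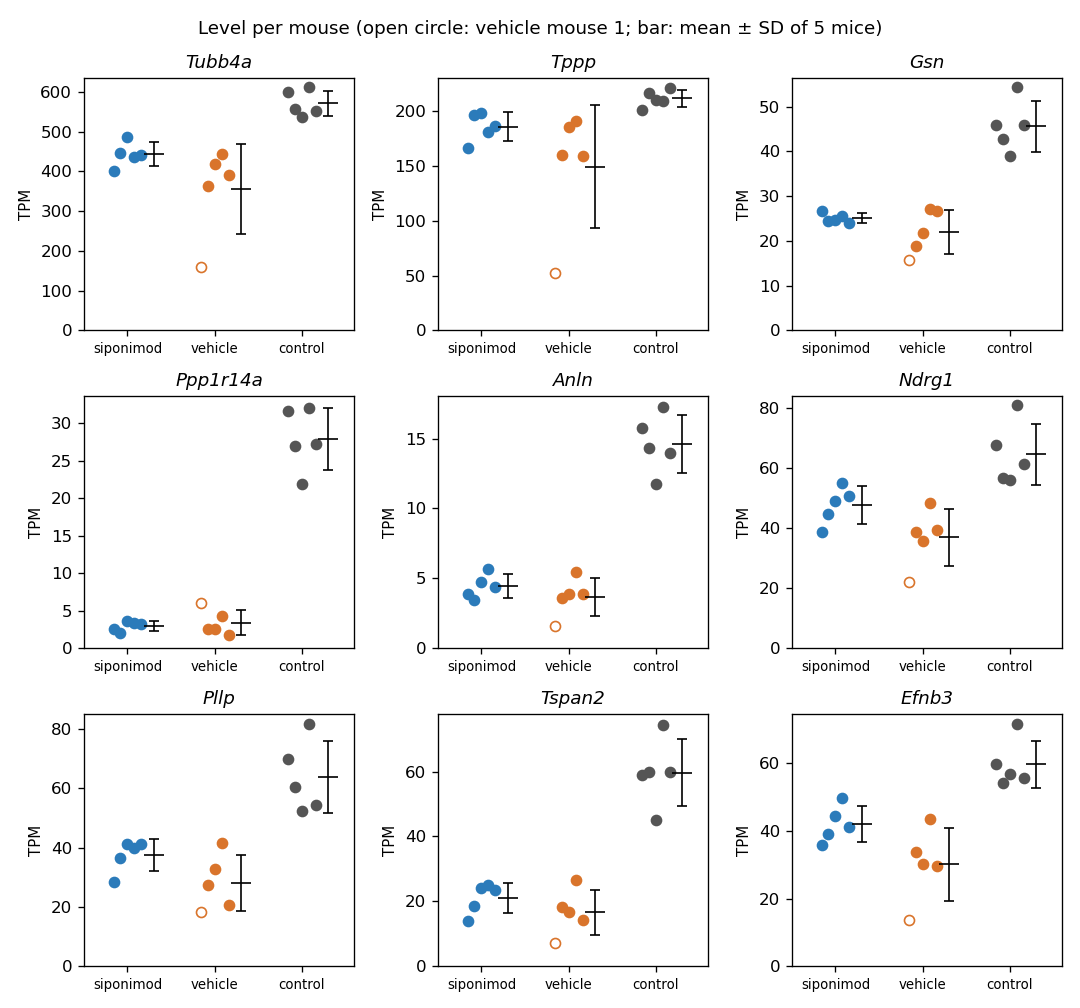
Deposited TPM of the 9 genes in every mouse, 1 panel a gene, with points for mice and bars for the group mean ± SD of 5 mice. On these unscaled values every siponimod and vehicle mouse lies below the lowest control mouse for each gene. The same held for 2.09% of all tested genes in siponimod mice and 4.06% in vehicle mice. The choice of genes used these differences, so nothing is read from this, and after scaling Ndrg1 overlapped between siponimod and control mice. Vehicle mouse 1, the open circle, is the lowest vehicle mouse for 8 of the 9 and the highest for Ppp1r14a.

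In order of level in control mice, per transcript length, Tubb4a came first and Tppp next, and neither overlapped its neighbour. Ndrg1, Pllp, Efnb3, Tspan2 and Gsn followed with means of 64.5, 63.7, 59.7, 59.6 and 45.6 TPM, and each overlapped the next in range. Ppp1r14a at 27.9 ± 4.12 TPM was below all Gsn values, and Anln at 14.6 ± 2.06 TPM was below all Ppp1r14a values (SD, n = 5). The order of distance from control was another one. In both groups on cuprizone Ppp1r14a, Anln and Tspan2 kept the smallest share of the control level and Tubb4a and Tppp the largest. For comparison, 7 structural myelin genes stood between 17.6% (Opalin) and 55.0% (Cnp) of control in siponimod mice and between 17.6% (Opalin) and 53.5% (Cnp) in vehicle mice. Ppp1r14a lay below that range in siponimod mice and, with vehicle mouse 1 counted, inside it in vehicle mice. Without that mouse it stood at 10.1%, against 15.4% for Opalin, the lowest of the 7 genes there next to Mog (15.5%). Anln and Tspan2 lay inside the range in both groups, and Efnb3, Ndrg1, Tubb4a and Tppp above it.

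**Figure D2:**
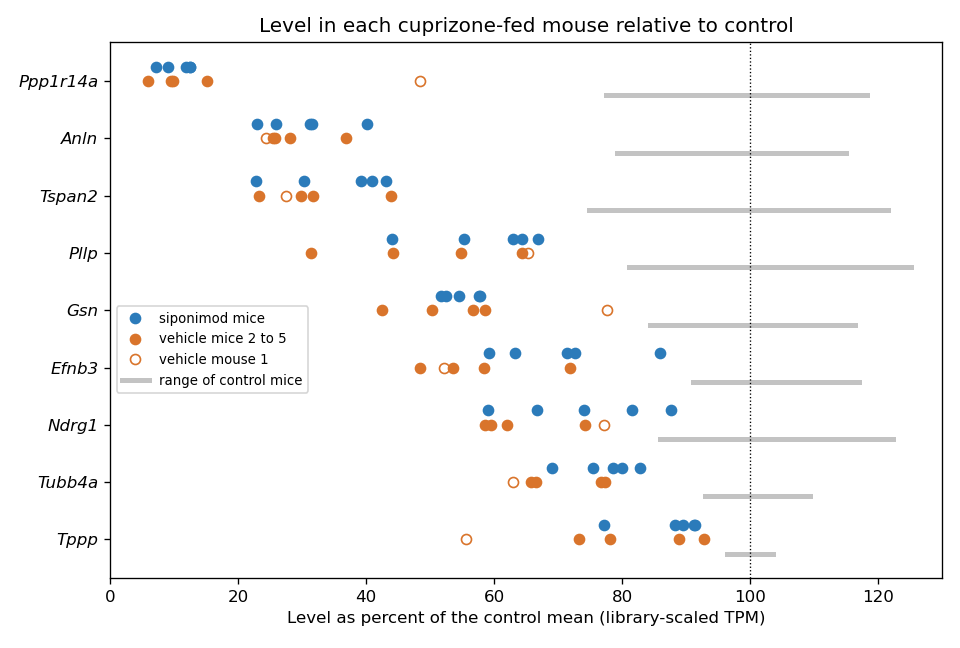
Level of the 9 genes as a percentage of the control mean after each library was scaled to a common median. Points are siponimod and vehicle mice, and a line gives the range of the control mice. The siponimod means, which are not drawn, range from 10.6% for Ppp1r14a to 87.5% for Tppp, and the vehicle value of Ppp1r14a at 48.4% is vehicle mouse 1.

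Read over the 9 genes, the log2 difference from control had a median of -0.76 in siponimod mice, with a range from -3.03 (Ppp1r14a) to -0.19 (Tppp), and a median of -0.81 in vehicle mice, with a range from -2.70 (Ppp1r14a) to -0.38 (Tppp). The median over all 17714 tested genes was 0.004 and 0.007 in the same comparisons. The number of genes whose 5 siponimod mice were all below the 5 control mice was 8 of the 9 after scaling, against 2.23% of all tested genes. For vehicle mice it was 9 of the 9, against 1.88%. On TPM as deposited it was 9 of the 9 for both, against 2.09% for siponimod mice and 4.06% for vehicle mice. Since the choice of genes used these differences, nothing is read from the counts. With vehicle mouse 1 and siponimod mouse 1 left out, the medians were -0.66 in siponimod mice and -0.93 in vehicle mice. Without vehicle mouse 1 alone they were -0.755 and -0.93, and without siponimod mouse 1 alone -0.66 and -0.81. The siponimod median thus moved with siponimod mouse 1, whose library did not stand apart as that of vehicle mouse 1 did. Both comparisons share the 5 control mice.

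Siponimod was then set against vehicle, the comparison of the drug under cuprizone. No gene passed, of these 9 or of all 17714 tested (limma, Benjamini-Hochberg adjusted p under 0.05, 0.0% called). At an unadjusted p under 0.05 there were 801 genes (4.52%), 1 of the 9 among them. The authors' deposited table lists 279 of 13589 genes (2.05%) at an adjusted p under 0.05, with 192 higher and 87 lower, and none of the 8 genes of this group that have a row in it is among them. Their smallest adjusted p in the authors' deposited table was 0.0968 for Ndrg1, at a log2 fold change of 0.26. Vehicle mice also entered the comparison with control by which some of the 9 genes may have been picked, so a higher value in siponimod mice is not independent of the choice of genes.

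Efnb3 was the gene with an unadjusted p under 0.05. Its log2 fold change was 0.31 (95% interval 0.06 to 0.56, limma adjusted p = 0.778). Without vehicle mouse 1 and siponimod mouse 1 it was 0.34 (0.09 to 0.59, limma adjusted p = 0.430). Among the others, Pllp had 0.21 (-0.20 to 0.61), Tppp 0.19 (-0.05 to 0.43), Tspan2 0.17 (-0.23 to 0.57), Ndrg1 0.15 (-0.12 to 0.42) and Tubb4a 0.15 (-0.03 to 0.32). Anln had 0.09 (-0.22 to 0.40) and Gsn -0.03 (-0.30 to 0.24). These intervals include 0 and, for Pllp and Tspan2, also differences above 0.5 log2, so equal levels are not shown. Ppp1r14a had -0.33 (-1.10 to 0.44), the widest interval of the 9, and it turned to 0.14 without vehicle mouse 1 and siponimod mouse 1. Gsn turned to 0.07 in the same fit. The adjusted p of the 9 genes lay between 0.778 and 0.933.

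7 of the 9 fold changes were above 0, where 47.8% of all tested genes were. Their median was 0.15 log2, against -0.009 over all tested genes. Without vehicle mouse 1 and siponimod mouse 1 all 9 were above 0, where 56.5% of all tested genes were, with a median of 0.15 against 0.018, and Ndrg1, Tubb4a, Efnb3 and Pllp had an unadjusted p under 0.05, as did 8.92% of all tested genes. No adjusted p of the 9 passed in that fit either. Siponimod mouse 1, left out there, was the lowest siponimod mouse for 6 of the 9 genes, so its absence raises the siponimod level. Without vehicle mouse 1 alone the median of the 9 genes was 0.11, against 0.013 over all tested genes. Efnb3 then had 0.28 and Ndrg1 0.21. No gene of the 9 separated the 5 siponimod from the 5 vehicle mice after scaling, as 0.689% of all tested genes did with siponimod higher and 0.344% with siponimod lower.

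**Figure D3:**
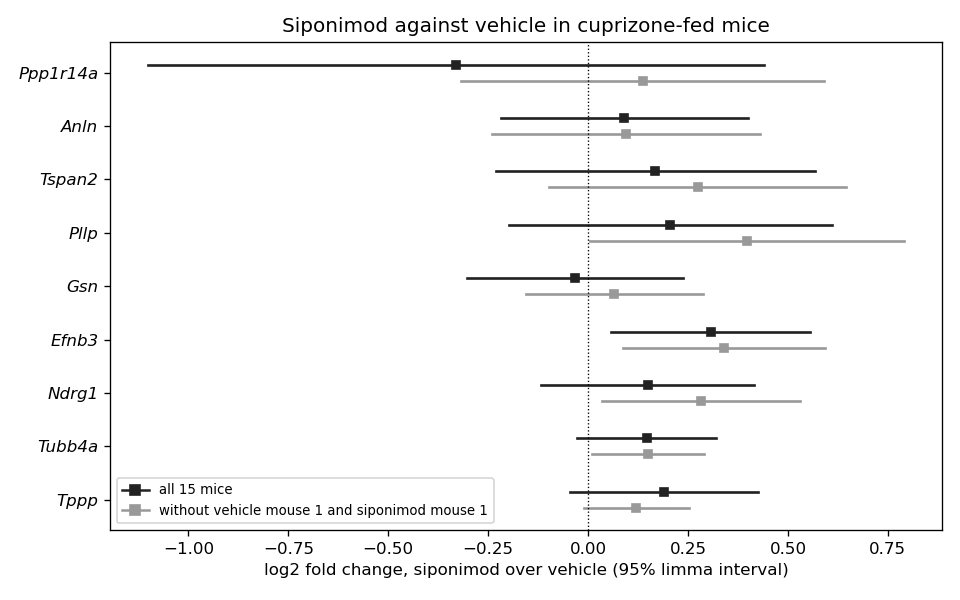
Log2 fold change of siponimod over vehicle mice for the 9 genes with 95% limma intervals, for all mice and without vehicle mouse 1 and siponimod mouse 1. The Efnb3 interval (0.06 to 0.56 with all mice) lies above 0, and Ppp1r14a stands at -0.33 with all mice and at 0.14 without the pair.

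Relatives and partners of the 9 genes were examined from lists of gene families, and these genes were not chosen for how they moved, although earlier results of these data were known when the lists were written. The background for their counts is 0.429% of tested genes called higher and 0.751% called lower in siponimod against control, and 1.38% higher and 1.03% lower in vehicle against control. Against vehicle, no gene of any of the 16 lists passed in siponimod mice. The median log2 fold change of the 9 family lists lay between -0.05 (microtubule regulators) and 0.06 (tubulins) in siponimod against control and between -0.14 (microtubule regulators) and 0.24 (the 2 relatives of Ppp1r14a) in vehicle against control, with 0.004 and 0.007 over all tested genes. Without vehicle mouse 1 and siponimod mouse 1 the 2 relatives of Ppp1r14a had a median of 0.06 in vehicle against control.

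Of the 13 tubulins other than Tubb4a, none fell. Tubb6 rose in siponimod mice, with a mean of 6.73 ± 0.40 TPM, against 4.31 ± 0.28 TPM in control mice (log2 fold change 0.58, limma adjusted p = 0.0281). It also rose in vehicle mice, at 5.92 ± 2.20 TPM, with the same control mice (0.58, adjusted p = 0.0198). Tubb2b had 118 ± 23.9 TPM in vehicle mice and 98.7 ± 11.2 TPM in control mice, and rose by the test (0.49, limma adjusted p = 0.0375). These calls were fragile, since Tubb2b passed in 6 and Tubb6 in 12 of the 15 fits that leave out 1 mouse in the vehicle comparison, and Tubb6 in 7 of 15 in the siponimod comparison. Tubb4b, Tubb5, Tubb2a and Tubb3 had vehicle against control log2 fold changes of 0.07, 0.13, 0.08 and 0.05 and did not pass.

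Of 19 microtubule regulators, 2 fell in vehicle mice and 0 in siponimod mice. Map7, which recruits kinesin to microtubules, had 52.3 ± 18.8 TPM in vehicle mice and 80.9 ± 3.77 TPM in control mice (-0.49, limma adjusted p = 0.00810), and it passed in all 15 fits that leave out 1 mouse. Map6d1 had 23.7 ± 8.59 TPM in vehicle mice and 37.1 ± 3.20 TPM in control mice (-0.49, adjusted p = 0.0362) and passed in 6 of the 15. Tppp3, the closest relative of Tppp on the list, had 36.1 ± 3.37 TPM in siponimod mice, 31.9 ± 5.39 TPM in vehicle mice and 50.7 ± 6.27 TPM in control mice and did not pass in either comparison. Without vehicle mouse 1 and siponimod mouse 1 the list had 3 genes lower in siponimod mice, where 1.22% of all genes were called lower, and 6 in vehicle mice, where 1.95% were, Map7, Stmn4 and Tppp3 in both.

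Among 21 actin regulators 1 gene passed, Capg, a gelsolin relative of macrophages and microglia. It rose in vehicle mice to 8.22 ± 4.24 TPM, against 3.11 ± 0.72 TPM in control mice (1.41, limma adjusted p = 0.0397), and passed in 4 of the 15 fits that leave out 1 mouse. Ppp1r14b and Ppp1r14c, the tested relatives of Ppp1r14a, had vehicle against control log2 fold changes of 0.45 and 0.03 and did not pass. Their summed scaled TPM were 108 in vehicle mouse 1, against a median of 44.6 over the vehicle mice.

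Septins bind anillin and line the innermost myelin layers. Of 9 tested, Septin4 fell in siponimod mice, with 131 ± 11.8 TPM, against 259 ± 42.8 TPM in control mice (-0.97, limma adjusted p = 0.0337). In vehicle mice it had 125 ± 12.3 TPM and missed the threshold (-0.80, adjusted p = 0.0691). It passed in both comparisons without vehicle mouse 1 and siponimod mouse 1. In the siponimod comparison it passed in 5 of the 15 fits that leave out 1 mouse. Whether the 2 comparisons differ was not tested beyond siponimod against vehicle, where Septin4 did not pass (limma adjusted p = 0.794).

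In the NDRG family, Ndrg2, a gene of astrocytes, was higher where Ndrg1 was lower. It had 573 ± 136 TPM in vehicle mice and 506 ± 19.2 TPM in control mice and rose after scaling (0.39, limma adjusted p = 0.00882), in all 15 fits that leave out 1 mouse but not with TPM as deposited, where the log2 fold change was 0.14. Ndrg3 and Ndrg4 had vehicle against control log2 fold changes of -0.13 and 0.006 and did not pass. Of 19 ephrins and Eph receptors none passed in either comparison with control, and Efnb1 and Efnb2 had vehicle against control log2 fold changes of -0.04 and -0.03.

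Of 22 tetraspanins, Cd82 fell in both groups on cuprizone, with 13.7 ± 1.33 TPM in siponimod mice, 10.001 ± 2.52 TPM in vehicle mice and 21.2 ± 4.77 TPM in control mice. The log2 fold change was -0.60 in siponimod mice (limma adjusted p = 0.0331, 6 of 15 fits) and -0.83 in vehicle mice (adjusted p = 0.00199, 15 of 15 fits). Cd53, a leukocyte tetraspanin, and Tspan4 rose in vehicle mice (0.84 and 0.71, limma adjusted p = 0.0249 and 0.0297). Each passed in fewer than all 15 fits, Cd53 in 9 and Tspan4 in 10. Cd9 and Cd81, tetraspanins found in oligodendrocytes and other cells, had 0.42 and 0.09 in vehicle mice and did not pass. In the MARVEL family of Pllp, 1 of 19 genes passed, Mal, a proteolipid of myelin. Its mean was 18.3 ± 3.33 TPM in siponimod mice, 15.2 ± 6.11 TPM in vehicle mice and 132 ± 21.4 TPM in control mice. The log2 fold changes of Mal were -2.83 in siponimod mice and -2.91 in vehicle mice, past the size for Pllp and near that of Ppp1r14a, and both passed in all 15 fits. Mal2 had 0.02 in vehicle mice and did not pass.

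With TPM as deposited, without scaling, Tubb6, Tubb2b, Map7, Map6d1, Capg, Ndrg2, Cd53 and Tspan4 did not pass in vehicle against control, nor Tubb6 and Cd82 in siponimod against control, and all kept their direction. Mal and Cd82 in vehicle mice, and Mal and Septin4 in siponimod mice, passed there as well. Relatives that were lower by the test there, but not after scaling with all mice, were Cmtm5 and Stmn4 in both comparisons, and Septin4 and Tppp3 in vehicle against control. Without vehicle mouse 1 and siponimod mouse 1 other relatives passed besides. In vehicle against control these were Arpc1b (higher), Efna2 (lower), Cmtm5 (lower) and Cmtm3 (higher), and in siponimod against control Tubb2b, Ndrg2 and Ppp1r14b (higher) and Cmtm5 (lower). With the same mice left out, 2.44% of all genes were called higher in vehicle mice and 0.992% in siponimod mice. With Bc1 taken out instead of scaling, Tubb6, Tubb2b, Map7, Map6d1, Ndrg2 and Tspan4 did not pass in vehicle against control. Nor did Tubb6 and Cd82 in siponimod against control. At that setting Stmn4 was lower by the test in both comparisons, Septin4 and Tppp3 lower in vehicle mice and Tubb2b higher in siponimod mice. With the vehicle and control groups alone, Tubb6, Tubb2b, Capg, Map6d1, Ndrg2 and Tspan4 did not pass.

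**Figure D4:**
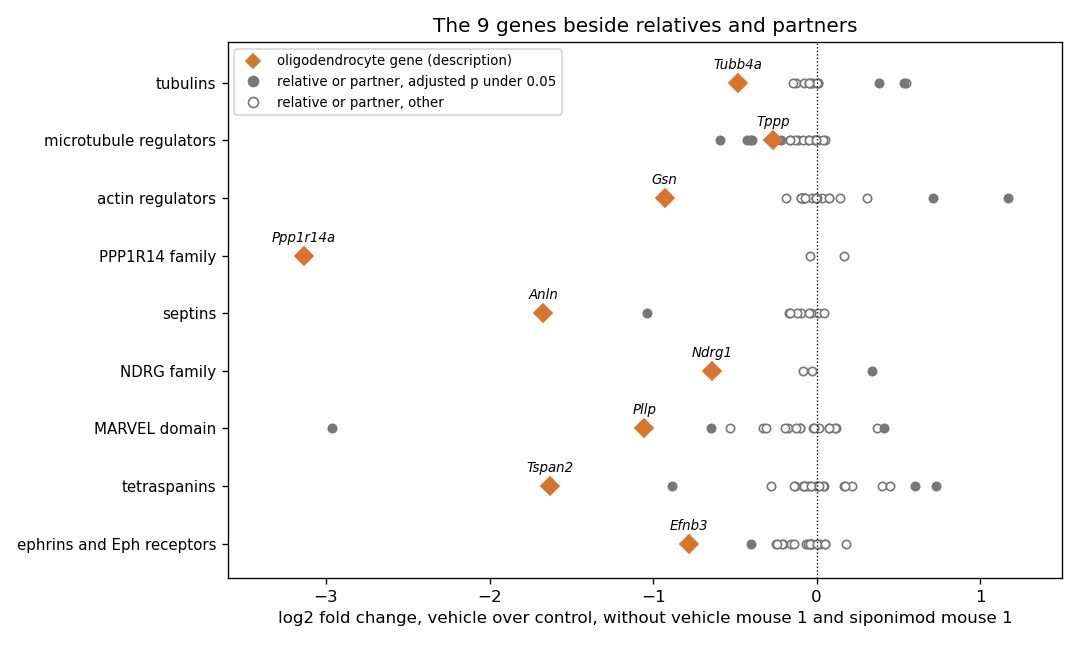
Log2 fold change of vehicle over control mice by family, with vehicle mouse 1 and siponimod mouse 1 left out, with diamonds for the 9 genes (a description) and circles for relatives and partners, filled where limma's adjusted p was under 0.05. Most circles lie near 0, with Mal at -2.96 and Capg at 1.17 at the ends.

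Marker lists of the cells in this tissue were read beside these values. The structural myelin list had 6 of 7 genes called lower in siponimod mice and 7 of 7 in vehicle mice, with medians of -2.21 and -2.27 log2, and its summed scaled TPM were 551 to 1213 in siponimod mice, 410.0 to 1135 in vehicle mice and 2587 to 3865 in control mice. Cnp, the gene not called in siponimod mice, had -0.87 there (limma adjusted p = 0.0604) and -0.95 in vehicle mice (adjusted p = 0.0242). In siponimod mice Cnp passed without vehicle mouse 1 and siponimod mouse 1, and its call in vehicle mice held in 10 of the 15 fits that leave out 1 mouse. The oligodendrocyte progenitor list had 1 of 12 genes called in siponimod mice, Olig2, which rose after scaling but did not pass with TPM as deposited, and 0 in vehicle mice, with sums of 246 to 269, 238 to 261 and 251 to 280 in siponimod, vehicle and control mice. The microglia list had 0 of 12 called in siponimod mice and 4 higher in vehicle mice (C1qc, C1qb, Tyrobp and Trem2, which passed in 12, 9, 9 and 9 of the 15 fits that leave out 1 mouse and did not pass with the vehicle and control groups alone), with sums of 472 to 796, 528 to 1674 and 395 to 437 in the same order of groups. The top vehicle value of 1674 was vehicle mouse 1. Astrocyte markers had 2 of 11 called higher in siponimod mice (Aldh1l1 and Gfap) and 4 of 11 in vehicle mice (these with Vim and Gjb6), with sums of 1838 to 2509, 2039 to 3078 and 1609 to 1699. Gfap and, in vehicle mice, Vim passed under each of the 25 alternatives, whereas Aldh1l1 in both comparisons and Gjb6 did not pass with TPM as deposited or with Bc1 taken out. None of 12 neuron markers passed in either comparison, with sums of 6996 to 7637, 6526 to 8653 and 7217 to 8127. The top vehicle sums of the astrocyte and neuron lists, 3078 and 8653, were also vehicle mouse 1. No endothelial (10) or meningeal fibroblast (8) marker passed, and no marker of any list was at 0 in every mouse. With vehicle mouse 1 and siponimod mouse 1 left out, more markers passed. The microglia list then had 0 called in siponimod mice and 10 higher in vehicle mice, and the astrocyte list 5 and 6 higher. Of the progenitor list, Olig2 was higher in siponimod mice, and Olig2 and Sox6 were higher and Olig1 lower in vehicle mice. Nrgn, a neuron marker, was lower in vehicle mice. Of the endothelial list, Ly6c1 was higher and Slco1a4 lower in siponimod mice, and Cldn5 was lower in vehicle mice. With TPM as deposited, C1qa was higher and Olig1 and Nrgn were lower in vehicle mice. At the same setting Vim was higher and Cnp lower in siponimod mice, beside those of the calls above that held. With all mice, the medians of the microglia, astrocyte and neuron lists were 0.32, 0.30 and -0.01 log2 in siponimod against control and 0.95, 0.34 and -0.08 in vehicle against control. Without vehicle mouse 1 and siponimod mouse 1 they were 0.25, 0.26 and 0.01 in siponimod mice. In vehicle mice they were then 0.64, 0.30 and -0.06. The part that more glial RNA from other cells has in the levels of the 9 genes was not tested.

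The 9 genes were also followed mouse by mouse, as the average log2 difference from the control mean. In siponimod mice 1 to 5 this average was -1.26, -1.18, -0.94, -0.83 and -0.92. In vehicle mice it was -0.94, -1.26, -1.16, -0.87 and -1.42, and in control mice 0.13, -0.05, -0.22, 0.20 and -0.06. Without Ppp1r14a, which was high in vehicle mouse 1, the averages were -1.02, -0.89, -0.71, -0.59 and -0.68 in siponimod mice. Vehicle mice then had -0.93, -1.02, -0.91, -0.66 and -1.13. The mice on cuprizone overlapped between the groups. The lowest siponimod mouse was mouse 1, the lowest for 6 of the 9 genes, and the highest was mouse 4, the highest for 6. Control mouse 3 was the lowest control mouse for 7 genes and control mouse 4 the highest for 6, so that mice of one group tended to be high or low in several of the 9 genes at once. Among vehicle mice 2 to 5, mouse 4 was the highest for 7 genes and mouse 5 the lowest for 5. The 7 structural myelin genes had averages of -2.65, -2.26, -1.73, -1.49 and -1.83 in siponimod mice 1 to 5 and -1.61, -2.30, -2.01, -1.68 and -2.98 in vehicle mice. Their lowest and highest siponimod mice were mice 1 and 4, as for the 9 genes, and their lowest vehicle mouse was mouse 5, also as for the 9. Their highest vehicle mouse was mouse 1, whereas that of the 9 genes was mouse 4. In each mouse on cuprizone the structural myelin average lay further below control than that of the 9 genes. All these genes come from the same libraries, and the values are a description.

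**Figure D5:**
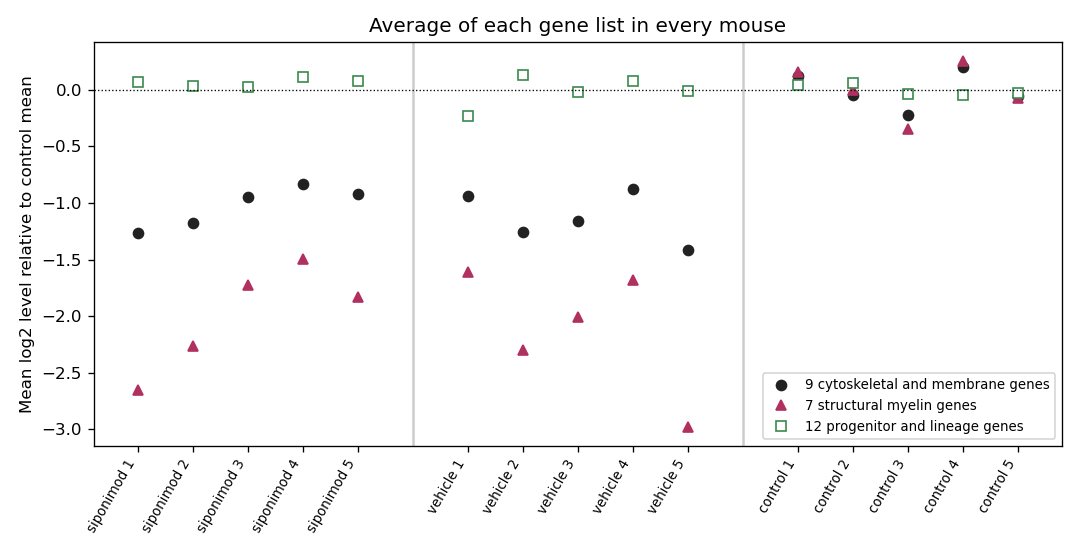
Average log2 difference from the control mean in each mouse for the 9 genes, the structural myelin genes and the progenitor markers. The 9 genes lie between -1.42 and -0.83 in mice on cuprizone, the structural myelin genes between -2.98 and -1.49, and the progenitor markers between -0.23 and 0.13.

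Of all tested genes other than the 9, those with the profile over the 15 mice most like the average of the 9 were Plekhb1, Ttyh2, Lpar1, Tmem63a and Il33, with a root mean square difference of 0.08, 0.12, 0.16, 0.16 and 0.16 log2. The median over all tested genes was 0.58. Plekhb1 had 130.2 ± 19.6 TPM in siponimod mice, 112 ± 29.0 TPM in vehicle mice and 277 ± 35.9 TPM in control mice. Among the 9 themselves, each set against the average of the other 8, Pllp (0.21) and Gsn (0.24) were closest and Tppp (0.49) and Ppp1r14a (1.10) farthest. By this measure Ppp1r14a was the least like the rest. The measure grows with the size of the difference from control as well as with the pattern over mice. Ppp1r14a was also 2.12 log2 higher in vehicle mouse 1 than in the other vehicle mice.

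The genes lie apart in the genome (GENCODE M21, GRCm38), at chr7:29289308-29293801 (Ppp1r14a, plus strand), chr15:66929318-66969640 (Ndrg1, minus), chr2:35256380-35307892 (Gsn, plus), chr13:74009407-74035753 (Tppp, plus), chr17:57080066-57087782 (Tubb4a, minus), chr9:22332012-22389188 (Anln, minus), chr11:69554092-69560205 (Efnb3, minus), chr8:94674894-94696278 (Pllp, minus) and chr3:102734529-102801513 (Tspan2, plus). Exons of Pllp, Ndrg1 and Tspan2 overlap exons of a gene on the opposite strand. Reads from stretches that Pllp and Ndrg1 share with their partners cannot be told apart here, since no source used here says whether quantification used strand. The partner of Pllp, Gm45767, shares 46.6% of the 31-base words of Pllp and was listed at up to 1.58, 1.83 and 2.24 TPM in siponimod, vehicle and control mice. Ndrg1 shares 16.5% of its words with its partners Gm17035 and Gm2895, and Tubb4a 1.87% with Tubb2a and Tubb2b. The other 6 genes share none.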

How the data were processed

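Libraries were made from 1 µg of RNA of corpus callosum with neocortex, using a kit for stranded total RNA with removal of ribosomal RNA, per the labels' protocols. The file headers name a 3′ mRNA analysis instead, and which was used could not be settled. Trim Galore 0.6.6, Salmon 1.4.0, STAR 2.6.1d, bcl2fastq and the build mm10 are named in the submitters' processing notes, without annotation or strand setting. The authors deposited TPM per mouse in 3 tables, each covering a pair of groups, and a mouse had identical TPM wherever it appeared. Each table also holds the authors' log2 fold change and its error, a test statistic (a score), a p-value and an adjusted p-value, and a mean level per gene (a signal over libraries), per the file headers. No source used here gives the method behind the deposited p-values.

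Each library was scaled to a common median over tested genes, which are those above 0.5 TPM in at least 5 mice (17714 of 19261). Limma 3.58.1 (R 4.3.3) with a variance trend took log2(TPM + 0.5) of all 3 groups in a single model, with Benjamini-Hochberg adjustment at 0.05 over all tested genes, and all p from limma in the text are from this model or its alternatives. The pseudocount understates fold changes of low genes. TPM keep no depth, so depth is unknown and error is the spread between mice, which the labels name separately. Likeness of profiles is the root mean square difference over 15 mice between scaled log2 values, each gene centred on its own mean, and the average of the 9 genes, and the 5 genes with the smallest difference were named. Listed genes were named where they passed (up to 4 a list and comparison) or as the closest relatives of the 9. The 9 genes and the 16 lists (202 of 216 entries matched) were chosen with earlier results of these data known. Gene positions and transcript lengths are those of GENCODE M21 and promoter windows those of RefSeq (GRCm38.p6). The fit was tested on simulated data. Other steps used Python 3.11.15 with matplotlib 3.10.9, scipy 1.17.1, pandas 2.3.3 and numpy 2.4.6. Alternatives varied the pseudocount, the filter, the scaling, the variance trend, the mice and groups fitted and a replicate block. Some listed genes are not reported here.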

Additional observations from a re-analysis of the deposited data

Results flagged for a closer look

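Of the 27 sets of 5 mice (9 genes in 3 groups), 2 had a mouse set apart from the others by Dixon's criterion at 95%, which chance gives for about 1 set in 20. Both were vehicle mouse 1 on deposited TPM. Tppp had 52.01 TPM there, against 159 to 191 TPM in the other 4 vehicle mice. Tubb4a had 159.1 TPM there, against 364 to 444 TPM in the others. Most deposited TPM of that library were low. After scaling, Tubb4a stood at 63.0% of the control mean there, against 65.7% to 77.3% in the other vehicle mice. Tppp stood at 55.7%, against 73.3% to 92.8%. Dixon's criterion was not applied to scaled levels.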

How the results depend on the processing

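Siponimod against vehicle called 0 of the 9 genes and 0 of all genes under each of the 25 alternatives, which does not show equal levels. The log2 fold change of Gsn, -0.03 with all mice, was 0.22 with TPM as deposited, 0.10 with Bc1 taken out, 0.066 without vehicle mouse 1 and siponimod mouse 1, 0.028 in the authors' deposited table, and -0.13 to 0.083 when 1 mouse was left out. Ppp1r14a, at -0.33, was 0.14 without that pair and -0.57 to 0.093 with 1 mouse left out, the 0.093 without vehicle mouse 1. Anln, at 0.09, was -0.0038 (without siponimod mouse 4) to 0.18 with 1 mouse left out, and 0.30 with TPM as deposited. The other 6 genes stayed above 0, with ranges over 1 mouse left out of 0.040 to 0.30 for Pllp, 0.075 to 0.26 for Tppp, 0.074 to 0.31 for Tspan2, 0.086 to 0.23 for Ndrg1, 0.11 to 0.19 for Tubb4a and 0.24 to 0.40 for Efnb3, so a value for 1 gene can rest on 1 mouse. Pllp and Tspan2 were lowest without vehicle mouse 5, Tppp without vehicle mouse 1. With TPM as deposited the shift of whole libraries is part of each value.

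Siponimod against control called 209 genes, 36.4% of them higher. It called 78 among genes at or above the median TPM, 132 with TPM as deposited (28.0% higher), 390 without the pair, 505 with the 2 groups alone (50.1% higher), and 139 (without control mouse 4) to 527 (without vehicle mouse 1, 47.8% higher) with 1 mouse left out. Vehicle against control called 427 genes, 244 higher, and 155, 220 (34.1% higher), 775 and 247 under the same 4 settings. With 1 mouse left out it called 250 to 676, namely 252, 283, 251 and 250 without control mice 1, 2, 4 and 5, 676 without vehicle mouse 1 and 271 without vehicle mouse 5. The median log2 difference of the 9 genes in siponimod mice was -0.51 among genes at or above the median TPM, where Ppp1r14a and Anln drop out, and -0.82 to -0.66 with 1 mouse left out. In vehicle mice it was -1.06 with TPM as deposited and -0.93 to -0.76 with 1 mouse left out. The cause of these moves was not tested.

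Same-numbered mice correlated by -0.07 to 0.21 in their deviations from the group means. Mice with different numbers were not set beside them, so whether the numbers pair mice is not settled. With the number as a replicate block, siponimod against vehicle called 0 genes, siponimod against control 181 and vehicle against control 369. TPM carry no depth, so limits set by depth are unknown.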
